A study of Mus musculus with 7 samples.

Results

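The 7 genes described here, Cd247, Lck, Zap70, Lat, Lcp2, Skap1 and Themis, encode the proteins that act first when a T cell receptor binds its ligand. They were taken by symbol from the 33696 genes of the deposited feature lists, and each symbol matched 1 gene. Their unique molecular identifiers (UMIs, 1 per captured transcript) were counted in CD8, CD4 and Foxp3 T cells and in natural killer (NK) cells of 7 mouse tumors. Single-cell libraries had been made from JW23.3, a malignant peripheral nerve sheath tumor (MPNST) line, grown under the skin of wild-type female C57/B6 mice aged 5 to 6 weeks at implantation. JW23.3 is a single male line and every tumor came from it, so the host cells were the female ones. Mice were randomized on day 7 by tumor size. The 4 irradiated tumors received 5 daily fractions of 2 Gy to the tumor site, the 3 control tumors received none, and all were harvested on day 21. Each library was 1 tumor, and the tumor was the replicate.

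As background, an engaged T cell receptor passes its signal through the CD3 chains and the zeta chain, whose tyrosine motifs are phosphorylated by the kinase Lck. Zap70 binds the phosphorylated motifs and phosphorylates the membrane adapter Lat and the cytosolic adapter Lcp2 (SLP-76), which together assemble the complex that leads to calcium, Ras and NF-kappaB signaling. Skap1 links the receptor to integrin adhesion, and Themis tunes the strength of receptor signals during thymic selection. NK cells use part of the same set, since their activating receptors also pair with the zeta chain and with Zap70.

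T cells were gated by UMIs of the receptor and CD3 chains, and none of the 7 genes was used in a gate. Of 34297 retained cells, 1223 passed the T gate. Of these, 306 had a CD8-chain UMI and no Cd4 or Foxp3, 260 had Cd4 alone, 201 had Foxp3, and 456 had no such UMI or a mixture. A Foxp3 T cell with a Cd4 UMI whose Foxp3 transcripts were missed falls in the CD4 gate. Foxp3 stood at 286 CPM in Foxp3-gated cells, and CD4-gated cells had a median of 3227 UMIs. How many such cells the CD4 gate held was not tested. The NK gate held 63 cells, 4 to 13 per tumor. T-gated cells of a tumor summed to between 675210 and 1181220 UMIs. Xist, transcribed in female host cells, was found in 90.4% of T-gated and 90.5% of NK-gated cells. Of the NK-gated cells, 79.4% had Nkg7, 88.9% Klrk1, 46.0% Eomes and 74.6% the gate gene Ncr1. The NK gate first written held 3313 cells with Xist in 6.94%, because its list included Klra4, which had 30808 UMIs in tumor-gated cells. Klra4 was therefore dropped and a Ptprc UMI required, after these markers had been seen. In all, 190 cell barcodes occurred in more than 1 library, among them those of 18 T- or NK-gated cells.

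Some T-gated cells carried RNA of other cells, and unevenly between the groups. The gate allowed up to 1% of a cell's UMIs from 4 genes of tumor and stromal cells (Col1a1, Col1a2, Col3a1 and Sparc), and 83 of the 1223 T-gated cells had over 0.1%. These 83 cells had a mean of 15389 UMIs, against 4294 in the other T-gated cells, but a median of 2998, against 3403.5. A Klra4 UMI was found in 28.9% of the 83 cells, against 0.877% of the others. They were 8.52%, 2.78%, 2.91% and 2.53% of the T-gated cells in irradiated tumors 1 to 4, and 12.4%, 10.7% and 6.51% in control tumors 1 to 3. They held 36.0%, 3.39%, 10.0% and 5.93% of the T-gate UMIs of irradiated tumors 1 to 4, and 31.8%, 34.0% and 27.0% of those of control tumors 1 to 3. Irradiated tumor 1 thus lay with the controls in this measure. By gate, such cells held 27.9% of the UMIs in CD8, 6.44% in CD4, 19.7% in Foxp3 and 1.07% in NK cells. The calls and levels that the results turn on are therefore given at the 1% limit and again with these cells left out, at a limit of 0.1% that was set after seeing the data.

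**Figure D1:**
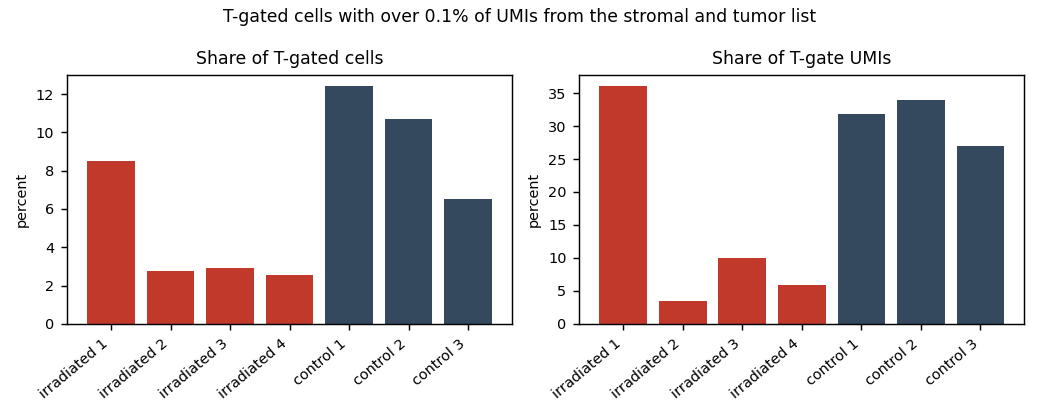
Share of T-gated cells (left, percent of cells) and of their UMIs (right, percent of UMIs) that belonged to cells with over 0.1% of UMIs from the 4 tumor and stromal genes, with 1 bar per tumor, red for irradiated and dark blue for control. The UMI share was 27.0% to 34.0% in the control tumors and 36.0% in irradiated tumor 1, against 3.39% to 10.0% in the other irradiated tumors.

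Promoter sequences are shown for 4 members that the results below turn on, Themis and Lat for NK cells, Zap70 for the comparison of irradiated with control tumors, and Lcp2 for macrophages. They are RefSeq windows of build GRCm38.p6, from 250 bases before to 50 bases after an annotated start, read along the gene's strand. RefSeq windows were matched for 6 of the 7 members, Skap1 having no entry, and where a gene has several starts the first listed is printed. Capitals mark 4 short motifs, on either strand and without overlap among them. The motif of the ETS factors was searched as AGGAAG. For the RUNX factors the letters searched were TGTGGT. The E-box, read by basic helix-loop-helix factors, was searched as CAGGTG. For the GATA factors the search used AGATAA.
Themis, chr10:28668110-28668409, plus strand: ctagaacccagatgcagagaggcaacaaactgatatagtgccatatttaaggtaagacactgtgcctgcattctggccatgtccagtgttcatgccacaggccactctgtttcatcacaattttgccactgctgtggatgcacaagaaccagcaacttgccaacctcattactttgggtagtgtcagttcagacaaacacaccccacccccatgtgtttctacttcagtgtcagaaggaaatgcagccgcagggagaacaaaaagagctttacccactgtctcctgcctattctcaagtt
Lat, chr7:126369519-126369818, minus strand: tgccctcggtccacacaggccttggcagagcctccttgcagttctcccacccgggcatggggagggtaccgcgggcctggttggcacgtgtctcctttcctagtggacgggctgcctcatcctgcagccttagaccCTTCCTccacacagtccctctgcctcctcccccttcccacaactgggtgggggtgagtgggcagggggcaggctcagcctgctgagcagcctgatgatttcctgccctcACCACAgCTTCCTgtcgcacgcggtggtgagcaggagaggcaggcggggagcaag
Zap70, chr1:36761548-36761847, plus strand: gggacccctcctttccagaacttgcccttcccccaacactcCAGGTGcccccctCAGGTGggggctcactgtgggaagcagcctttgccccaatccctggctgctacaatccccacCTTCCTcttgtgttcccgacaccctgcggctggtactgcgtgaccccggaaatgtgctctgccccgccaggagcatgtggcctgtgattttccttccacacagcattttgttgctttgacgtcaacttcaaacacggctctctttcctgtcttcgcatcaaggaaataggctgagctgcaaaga
Lcp2, chr11:34046678-34046977, plus strand: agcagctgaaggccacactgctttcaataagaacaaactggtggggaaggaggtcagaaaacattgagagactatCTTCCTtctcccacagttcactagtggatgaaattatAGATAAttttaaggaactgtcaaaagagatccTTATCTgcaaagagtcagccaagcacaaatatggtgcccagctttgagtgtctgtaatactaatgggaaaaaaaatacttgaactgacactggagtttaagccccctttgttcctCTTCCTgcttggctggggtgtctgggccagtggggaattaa

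Of the 10 windows of the members, 7 held the ETS, 3 the RUNX, 5 the E-box and 1 the GATA motif. Among all 32851 RefSeq windows of this length the shares were 35.4%, 16.8%, 20.2% and 11.2%. The window that held the GATA motif was that of Lcp2, and neither Themis window held any of the 4 motifs. These are matches of letters only.

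For 6 of the 7 genes most transcripts were found in T cells. Between 76.5% (Lck) and 90.3% (Themis) of their UMIs lay in T-gated cells, a further 7.96% (Themis) to 13.2% (Cd247) lay in cells that no gate took, and 1.41% (Themis) to 6.58% (Skap1) lay in tumor- and stromal-gated cells. In macrophage-gated cells none of these 6 exceeded 1.29 CPM (UMIs scaled to 1000000 per gate and tumor) in any tumor, and in tumor-gated cells none exceeded 2.39 CPM, but in endothelial-gated cells the highest value in a tumor was 26.7 CPM, for Cd247. Lcp2, an adapter that myeloid cells also use, was the exception, with 77.7% of its UMIs in macrophage-gated cells and 8.59% in T-gated cells. It stood at 99.3 to 148 CPM in the macrophages of the 7 tumors and at 205 to 274 CPM in T-gated cells. When cells were thinned to 1000 UMIs, a CD8 cell had a mean of 2.66 of the 7 genes, a CD4 cell 2.53, a Foxp3 cell 1.93 and an NK cell 1.22. The same mean was 0.120 in macrophage-gated and 0.00449 in tumor-gated cells, which were deeper before thinning (medians of 7573 and 21765 UMIs against 3389 in T-gated cells).

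**Figure D2:**
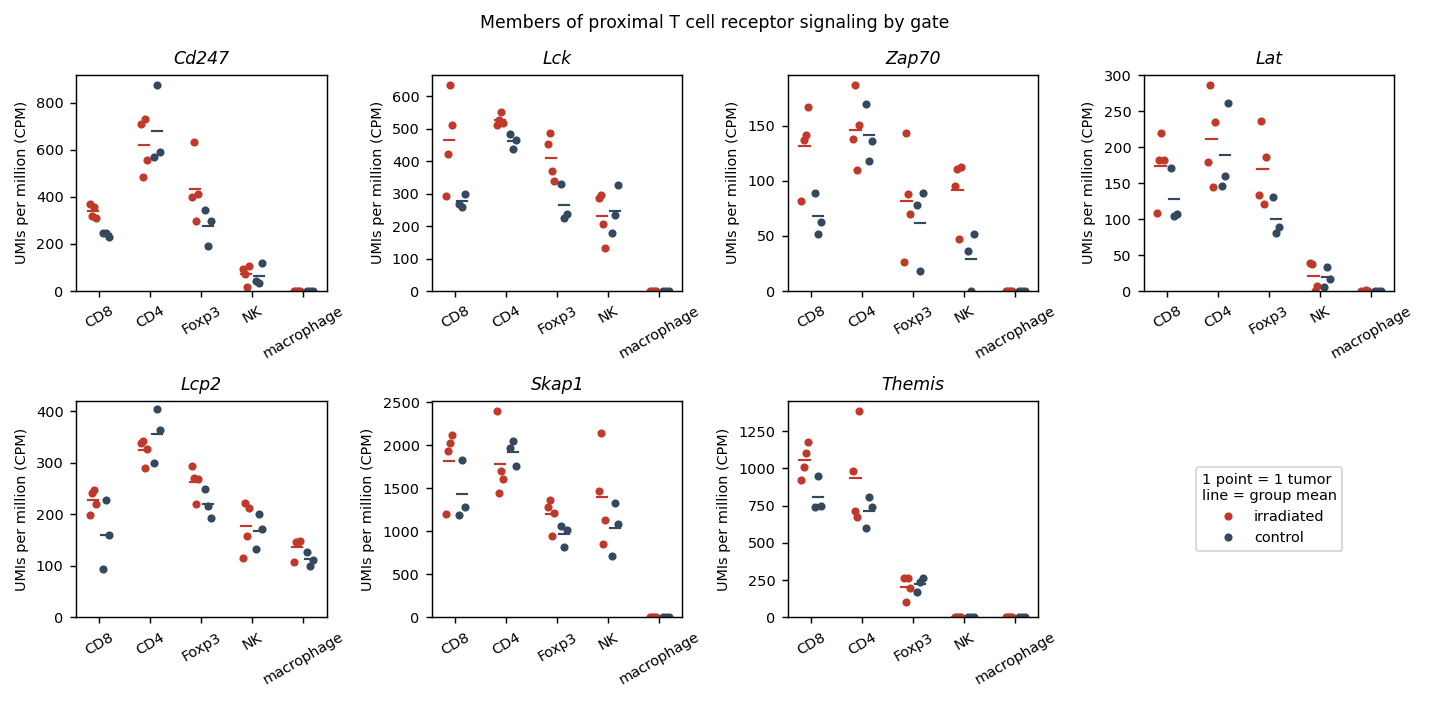
Levels of the 7 genes in CPM (linear axes, 1 panel per gene) in 4 lymphocyte gates and in macrophage-gated cells at the 1% limit, with 1 point per tumor and a line at the mean of each group, red for irradiated and dark blue for control. Themis was at 0 in NK-gated cells of every tumor, and Lcp2 alone was well above 0 in macrophages.

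In Foxp3 T cells, the regulatory subset, 4 of the 7 genes were lower than in CD4 T cells, with the largest difference for Themis. Themis stood at 597, 739 and 1385 CPM (lowest, median and highest of 7 tumors) in CD4 cells and at 101, 235 and 266 CPM in Foxp3 cells, and these ranges did not overlap. In the edgeR quasi-likelihood fit with tumor as a block, the log2 fold change of Themis was -2.06 ± 0.19 (SE, Benjamini-Hochberg adjusted p = 4.41e-07), the smallest adjusted p of the 4574 genes fitted. Skap1 stood at 1443, 1762 and 2397 CPM in CD4 cells and at 821, 1066 and 1366 CPM in Foxp3 cells. The ranges did not overlap either, and the log2 fold change was -0.80 ± 0.16 (edgeR, adjusted p = 0.00302). Both calls held at the 0.1% limit, with log2 fold changes of -1.77 ± 0.20 for Themis and -0.56 ± 0.13 for Skap1 (edgeR, adjusted p = 8.95e-07 and 0.00457). The ranges of Themis did not overlap there either. Those of Skap1 did, at 1070 to 1498 CPM in Foxp3 and 1415 to 2216 CPM in CD4 cells.

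The zeta chain and Zap70 were also lower in Foxp3 cells, with less stable calls. Cd247 stood at 485, 591 and 876 CPM in CD4 cells and at 189, 345 and 634 CPM in Foxp3 cells, with a log2 fold change of -0.87 ± 0.20 (edgeR, adjusted p = 0.0104). It held at the 0.1% limit (-0.67 ± 0.18, edgeR adjusted p = 0.0222) but not with stricter gates (-0.82, adjusted p = 0.0588), without irradiated tumor 3 (-0.72, adjusted p = 0.0760) or without control tumor 2 (-0.64, adjusted p = 0.0794). Zap70 stood at 110, 138 and 187 CPM in CD4 cells and at 18.0, 78.0 and 144 CPM in Foxp3 cells, on 147 and 106 UMIs in all. Its log2 fold change of -1.005 ± 0.27 passed (edgeR, adjusted p = 0.0288) but did not at the 0.1% limit (-0.72 ± 0.25, adjusted p = 0.0901), nor when any 1 of irradiated tumors 1, 3 and 4 or control tumors 1 and 2 was left out (adjusted p of 0.0526 to 0.117). Lck (-0.60 ± 0.18), Lat (-0.56 ± 0.22) and Lcp2 (-0.50 ± 0.18) did not pass (edgeR, adjusted p = 0.0595, 0.160 and 0.1). In all, 4 of the 7 genes were called lower, or 3 at the 0.1% limit, where 3.54% of all genes tested, or 3.22%, were called lower. The median log2 fold change was -0.80 over the 7 genes and -0.0023 over all genes of the fit.

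CD4 and CD8 cells differed in the zeta chain. Cd247 stood at 229, 312 and 371 CPM in CD8 cells at the 1% limit, below every CD4 value given above. The log2 fold change, CD4 minus CD8, was 1.07 ± 0.20 (edgeR, adjusted p = 0.000214), and 0.70 ± 0.17 at the 0.1% limit (edgeR, adjusted p = 0.0031). Leaving out any 1 tumor gave values from 0.91 to 1.12 at the 1% limit. The ranges overlapped at the 0.1% limit, at 323 to 642 CPM in CD8 and 479 to 890 CPM in CD4 cells. This comparison shares its CD4 sums with the Foxp3 comparison and its CD8 sums with the NK comparison.

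Lcp2 and Themis changed their calls between the 2 limits. Lcp2 stood at 290, 339 and 405 CPM in CD4 cells and at 93.2, 221 and 247 CPM in CD8 cells, with a log2 fold change of 0.72 ± 0.17 (edgeR, adjusted p = 0.00287) that fell to 0.34 ± 0.17 at the 0.1% limit (adjusted p = 0.161). Themis, at 738, 949 and 1176 CPM in CD8 cells, gave -0.27 ± 0.17 at the 1% limit (edgeR, adjusted p = 0.266) and -0.67 ± 0.17 at 0.1% (adjusted p = 0.00524). Zap70 (0.43 ± 0.25), Lck (0.35 ± 0.18), Lat (0.30 ± 0.21) and Skap1 (0.11 ± 0.16) did not pass, and at 0.1% Lck, Lat and Skap1 turned to -0.04, -0.02 and -0.27. At the 1% limit 2 of the 7 genes were called higher, where 12.4% of all genes tested were, and at 0.1% 1 was called higher and 1 lower, where 10.9% and 8.09% were. CD4 cells also had more of the dissociation stress genes than CD8 cells (5286 against 3472 CPM, pooled over tumors), and the part of this in the differences was not tested. Foxp3 cells stood at 3720 CPM and NK cells at 5050 CPM in the same count, so the other gate comparisons share this limit.

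NK cells had Zap70, Lck, Lcp2 and Skap1 but no detected Themis and little Lat. Themis had 0 UMIs among 539160 UMIs of 63 NK-gated cells, where a count of 0 allows up to 3 UMIs or 5.56 CPM, against 956 CPM in the pooled CD8 cells. It was thus at least 172-fold lower, a limit over the whole gate that covers counting error only, and a count of 0 in 63 cells allows up to 4.76% of cells with a UMI. Lat had 7 UMIs in NK cells and stood at 0, 17.1 and 38.3 CPM there, against 104, 171 and 220 CPM in CD8 cells. Its log2 fold change, NK minus CD8, was -3.51 ± 0.46, and -3.57 ± 0.50 at the 0.1% limit (edgeR, adjusted p = 3.21e-06 and 1.35e-06). At the 1% limit the 4 NK sums with at least 10 cells entered the fit (control tumors 1 and 3, irradiated tumors 1 and 4). At the 0.1% limit control tumor 1 had 9 NK cells, so its NK sum was left out of the fit.

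The zeta chain was lower in NK cells but present. Cd247 stood at 15.8, 73.7 and 120 CPM in NK cells, on 38 UMIs, and its log2 fold change was -1.70 ± 0.32 (edgeR, adjusted p = 0.000527), or -1.80 ± 0.34 at 0.1% (adjusted p = 0.00019). With stricter gates it was -1.46, but only irradiated tumor 4 kept at least 10 NK cells (13). That fit therefore held the NK sum of this tumor alone. Lck stood at 134, 233 and 326 CPM and Skap1 at 709, 1134 and 2138 CPM in NK cells. Both missed the threshold at the 1% limit (-0.69 ± 0.25 and -0.56 ± 0.21, edgeR adjusted p = 0.0787 and 0.0823) and passed it at 0.1% (-1.08 ± 0.24 and -0.82 ± 0.18, adjusted p = 0.00207 and 0.00172). The NK sum of control tumor 1 was in the fit at the 1% limit only, so the NK fits differ in tumors as well as in cells. Zap70, at 0, 51.4 and 113 CPM on 36 UMIs, gave -0.48 ± 0.36, and Lcp2, at 115, 171 and 221 CPM, gave -0.15 ± 0.24 (edgeR, adjusted p = 0.468 and 0.780). At 0.1% they gave -0.51 ± 0.37 and -0.52 ± 0.28 (edgeR, adjusted p = 0.491 and 0.312). Called lower were 3 of the 7 genes at the 1% limit and 5 at 0.1%, where 4.57% and 4.1% of all genes tested were called lower.

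**Figure D3:**
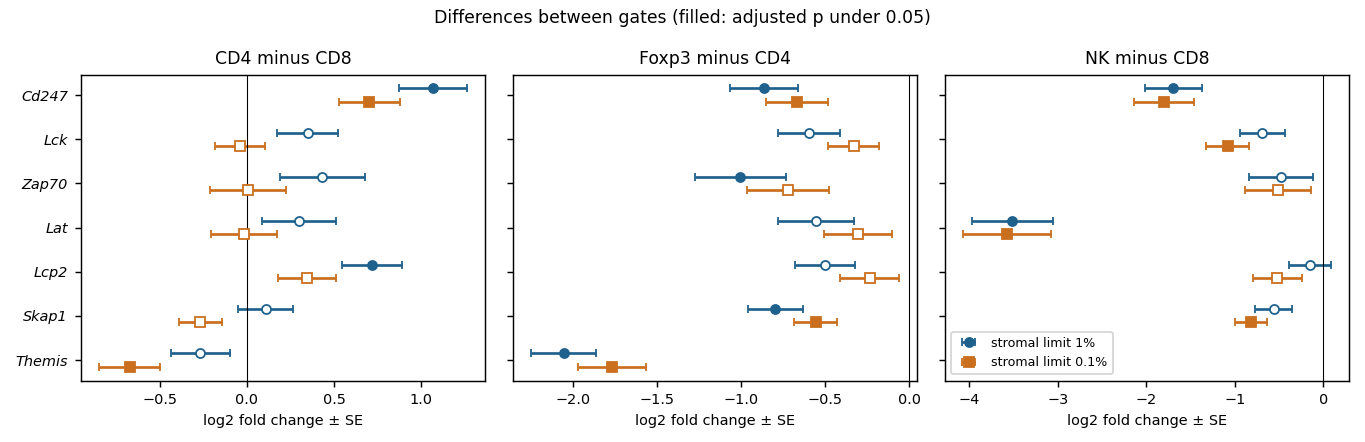
Log2 fold changes of each gene between gates (horizontal axes) with standard errors from edgeR, at the 1% limit (blue circles) and the 0.1% limit (orange squares), filled where the adjusted p was under 0.05. Themis is left out of the NK panel, where it had 0 UMIs, and its log2 fold change of -2.06 is the largest in the Foxp3 panel.

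Other genes of the pathway also differed between the gates. Among 26 further kinases, adapters and enzymes, 3 were called higher and 5 lower in NK than in CD8 cells, where 4.66% of all genes tested were called higher and 4.57% lower. The Tec-family kinases Tec (2.88 ± 0.39) and Txk (2.45 ± 0.27) were among the higher (edgeR, adjusted p = 4.99e-06 and 2.37e-07). Grap2, the adapter that binds Lat and Lcp2 (-4.16 ± 0.28), was lower (edgeR, adjusted p = 7.2e-12), and Plcg1, the phospholipase that binds Lat, was at 0 in the 4 NK sums against a mean of 68.4 CPM in CD8 cells. Of 7 counterparts tested from NK, B and myeloid cells, 5 were called higher and none lower in NK cells, among them the signaling chains Tyrobp (5.69 ± 0.34) and Fcer1g (5.23 ± 0.37) and the phospholipase Plcg2 (5.04 ± 0.83). At the 0.1% limit the list of kinases, adapters and enzymes gave 2 higher and 6 lower, where 3.94% and 4.1% of all genes tested were called, and the same 5 counterparts were called.

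The list of brakes on the receptor gave 2 of 18 higher and 6 lower in NK than in CD8 cells. Of all genes tested 4.66% were called higher and 4.57% lower, the share also for the early response genes below. The adapter Dok2 (1.69 ± 0.50) and the phosphatase Ubash3b (0.78 ± 0.23) were higher and Ubash3a was lower (-2.61 ± 0.66, edgeR adjusted p = 0.0286, 0.0268 and 0.00972), while the surface proteins Cd5 and Cd6 had means of 0 and 1.503 CPM in the NK sums against 150 and 298 CPM in CD8 cells. Dok2 and Ubash3b were no longer called at 0.1%. There 1 brake, Dgkz, was called higher (0.98 ± 0.32, edgeR adjusted p = 0.0458), where 3.94% of all genes tested were. At this limit 6 brakes were called lower, where 4.1% of all genes tested were. Among 12 early response genes, 1 was called higher, Tnfrsf9, a co-stimulatory receptor (1.97 ± 0.45, edgeR adjusted p = 0.00853), which did not pass at 0.1% (adjusted p = 0.0658). Of 11 early response genes tested at 0.1%, 1 was called lower, Irf4 (edgeR, adjusted p = 0.0132). Its mean was 0 CPM in the NK sums against 47.0 CPM in CD8 cells.

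In Foxp3 against CD4 cells, 4 of the 26 further kinases, adapters and enzymes were called lower and none higher, where 3.54% of all genes tested were called lower and 1.16% higher. Among the 4 were the kinase Prkcq (-1.54 ± 0.25) and Grap2 (-0.80 ± 0.16, edgeR adjusted p = 0.000287 and 0.0024). Of 18 brakes 1 was called lower, the phosphatase Ptpn22 (-0.96 ± 0.14, adjusted p = 8.84e-05), and of the 7 counterparts Hcst was lower (-0.81 ± 0.20, adjusted p = 0.0162). Of 12 early response genes, the interleukin-2 receptor chain Il2ra was called higher (0.89 ± 0.22) and Cd40lg, the CD40 ligand, lower (-3.34 ± 0.54, adjusted p = 0.0187 and 0.00136), as was Ifng, at means of 1.67 CPM in Foxp3 and 163 CPM in CD4 cells. Hcst was no longer called at the 0.1% limit, where 3 of the 26 were called lower and none higher, against 3.22% and 1.27% of all genes tested. Of 11 early response genes 2 were called higher and 2 lower there.

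In CD4 against CD8 cells, 8 of the 26 kinases, adapters and enzymes were called higher and 3 lower, where 12.4% of all genes tested were called higher and 11.2% lower, so that the count of lower genes was near that share. Trat1, an adapter of the receptor (1.64 ± 0.54), the transcription factor Nfatc3 (0.93 ± 0.17) and Rasgrp1, the exchange factor that activates Ras (0.85 ± 0.20), led those that were higher, and Txk (-1.34 ± 0.25), Evl (-1.12 ± 0.32) and Nck1 (-0.84 ± 0.26) were lower. At 0.1% the list gave 5 higher and 9 lower, where 10.9% and 8.09% of all genes tested were called, and Trat1 and Rasgrp1 no longer passed (edgeR, adjusted p = 0.104 and 0.0881). Of 18 brakes 6 were higher, led by Cd5 (1.73 ± 0.18), Sla (1.49 ± 0.19) and Dgkz (0.88 ± 0.25), and 3 were lower, the adapters Sla2 (-1.59 ± 0.46) and Lax1 (-1.34 ± 0.38) and the phosphatase Ptpn6 (-1.22 ± 0.40). At 0.1% these counts were 4 and 5, and the 6 named brakes kept their calls. Of 7 counterparts the kinase Lyn was higher (1.74 ± 0.39). Of 12 early response genes 6 were higher, led by the receptors Tnfrsf4 (3.71 ± 0.45) and Il2ra (3.01 ± 0.27) and by Cd40lg (3.19 ± 0.49), and Nr4a2 was lower (-1.13 ± 0.37). At 0.1% these 5 genes kept their calls, Hcst was called lower among the counterparts (-0.80 ± 0.16, edgeR adjusted p = 0.00036), and of 11 early response genes 6 were called higher and 1 lower.

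The comparison of irradiated with control tumors asked whether T cell signaling genes changed after irradiation. No gene was called in any gate by edgeR at an adjusted p under 0.05. DESeq2 called 1 gene in all T cells and 1 in Foxp3 cells. At an unadjusted p under 0.05, edgeR gave 868 of 8817 genes (9.84%) in all T cells, 4.95% of 5029 in CD8, 9.15% of 3072 in CD4, 7.24% of 4726 in Foxp3 and 3.37% of 2109 in NK cells. At the 0.1% limit no gene was called in the 4 T cell gates either, and the shares at an unadjusted p under 0.05 were 5.67%, 3.97%, 8.76% and 6.29% in all T, CD8, CD4 and Foxp3 cells. All 7 members had a fitted value above 0 in all T cells, where 50.5% of all genes did. Zap70 had been named by the study from these same libraries, so its direction here is not independent evidence.

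Zap70 had the largest fitted difference of the 7 in all T cells. It stood at 98.1, 145, 119 and 139 CPM in irradiated tumors 1 to 4 and at 88.7, 58.9 and 77.0 CPM in control tumors 1 to 3. Every irradiated tumor was above every control tumor. The log2 fold change was 0.71 ± 0.21 (edgeR, unadjusted p = 0.00537, adjusted p = 0.487). Groups without overlap, the irradiated higher, were found for 3 of the 7 members (Zap70, Cd247 and Skap1), where 5.35% of all genes tested showed this.

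With the 83 cells left out, Zap70 stood at 135, 149, 129 and 148 CPM in irradiated tumors 1 to 4 and at 120, 83.0 and 93.3 CPM in control tumors 1 to 3. The groups still did not overlap, and the log2 fold change was 0.43 ± 0.17 (edgeR, unadjusted p = 0.0221, adjusted p = 0.816). Lck, the kinase upstream of Zap70, stood at 324, 440, 505 and 459 CPM in the irradiated and at 309, 273 and 355 CPM in the control tumors at the 1% limit. There the groups overlapped by irradiated tumor 1, and the log2 fold change was 0.45 ± 0.17 (edgeR, adjusted p = 0.487). At the 0.1% limit Lck stood at 473, 451, 546 and 472 CPM against 414, 378 and 450 CPM, without overlap but with irradiated tumor 2 and control tumor 3 less than 1 CPM apart, at 0.17 ± 0.14 (edgeR, adjusted p = 0.967). Lat, at 182, 194, 182 and 202 CPM against 173, 156 and 179 CPM, also had no overlap there, at 0.11 ± 0.14, so that 3 of the 7 members had none, where 4.95% of all genes tested did.

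The fitted values of the other members came closer to 0 with these cells left out. In all T cells, Cd247 moved from 0.26 ± 0.13 to -0.03 ± 0.15, Skap1 from 0.20 ± 0.13 to -0.09 ± 0.13, Lcp2 from 0.20 ± 0.13 to -0.06 ± 0.15, Themis from 0.28 ± 0.23 to 0.0053 ± 0.30 and Lat from 0.40 ± 0.18 to 0.11 ± 0.14 (log2 fold change, edgeR). The number of members above 0 fell from 7 to 4, where 49.6% of all genes were above 0 at the 0.1% limit. The CD3 chains, which define the gate, moved with the groups too, at 1485 to 1805 CPM in the irradiated and 1143 to 1400 CPM in the control tumors. Counted per 1000 CD3-chain UMIs, the log2 ratio of the group means was 0.35 for Zap70, 0.08 for Lck, 0.04 for Lat, -0.10 for Cd247, -0.17 for Lcp2, -0.17 for Skap1 and -0.08 for Themis, and the Zap70 groups overlapped (66.0 to 96.4 against 49.3 to 77.6).

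**Figure D4:**
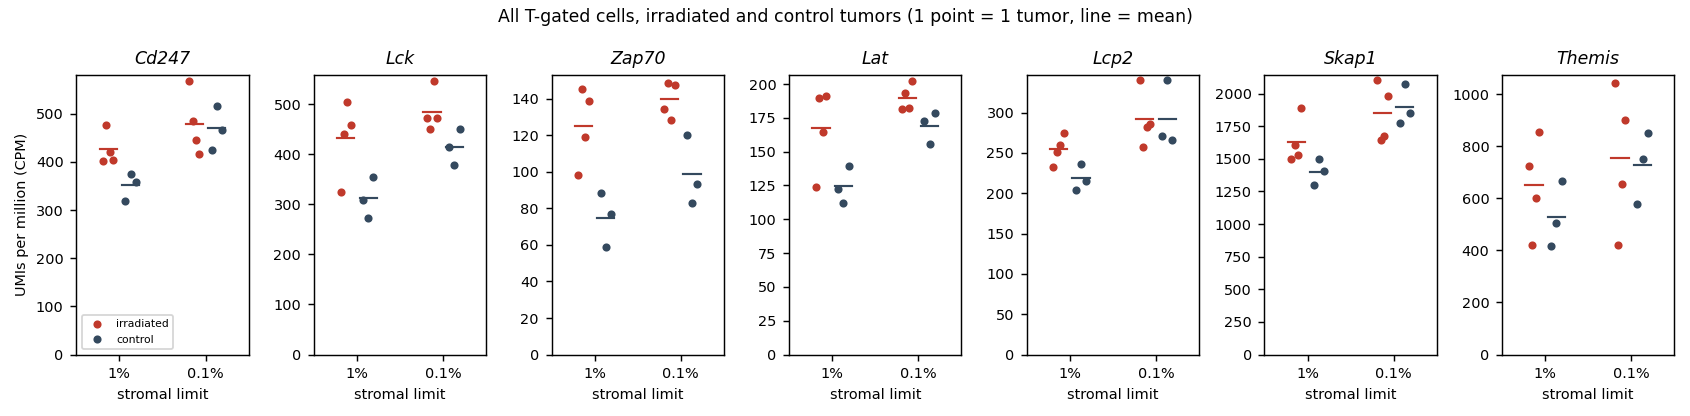
Levels of the 7 genes in all T-gated cells in CPM (linear axes from 0) at the 1% and the 0.1% limit, with 1 point per tumor and a line at the mean of each group, red for irradiated and dark blue for control. At 0.1% the irradiated tumors sat above the controls for Zap70 (129 to 149 against 83.0 to 120 CPM), while the means of Cd247, Lcp2, Skap1 and Themis nearly met.

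The calls depended on irradiated tumor 1. Without it, edgeR called 600 genes in all T cells, among them Zap70 (0.79, adjusted p = 0.0269) and Lck (0.54, adjusted p = 0.0295), and 151 genes in CD8 cells, among them Lck (0.87, adjusted p = 0.0463). Without it at the 0.1% limit, 3 genes were called in all T cells, Zap70 was at 0.44 (adjusted p = 0.578) and Lck at 0.18 (adjusted p = 0.862). The libraries were also split into 2 sets, called technical sets here, by cell number, depth, genes per cell and mitochondrial share. Irradiated tumor 1 and control tumors 2 and 3 were in set 1. The split was the best of 63, so 2 sets would come out of any data, and the sample labels name no batch. The share of variation left within the sets was 0.43, against 0.54 for the next best split. Within sets 1 and 2, the Zap70 difference in all T cells was 0.50 and 0.55, or 0.57 and 0.17 at the 0.1% limit, and the Lck difference was 0.04 and 0.56, or 0.17 and 0.18 (differences of mean log2 CPM, with no test). Set 1 held 1 irradiated and set 2 held 1 control tumor.

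Of the CD8, CD4 and Foxp3 subsets, Zap70 had its largest fitted difference in CD8 cells. It stood there at 81.5, 137, 141 and 167 CPM in irradiated tumors 1 to 4 and at 89.4, 52.0 and 62.7 CPM in the controls. The groups overlapped by irradiated tumor 1 and control tumor 1, and the log2 fold change was 0.90 ± 0.34 (edgeR, adjusted p = 0.829). At the 0.1% limit it stood at 152, 148, 141 and 176 CPM against 131, 85.5 and 105 CPM, without overlap, at 0.46 ± 0.27 (adjusted p = 0.999), where 3.48% of all genes tested had no overlap in this direction. All 7 members were above 0 in CD8 cells at the 1% limit (median 0.48, and 0.0030 over all genes, of which 50.4% were above 0). At 0.1% 6 members were above 0 (median 0.14), where 49.4% of all genes were. Cd247 alone had no overlap at the 1% limit, at 371, 319, 357 and 312 against 246, 247 and 229 CPM, where 4.02% of all genes tested had none. At 0.1% the irradiated tumors stood at 642, 348, 357 and 323 CPM, and all 3 controls, of which the lowest was at 342 CPM, lay within that range, so that the groups overlapped.

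In CD4 cells Zap70 stood at 138, 187, 110 and 151 CPM in the irradiated and 170, 118 and 136 CPM in the control tumors (-0.08 ± 0.31, edgeR adjusted p = 0.979). The groups overlapped. Of the 7 members 3 were above 0 in CD4 cells, where 49.5% of all genes were, with a median of -0.08, and Lck alone had no overlap, where 5.11% of all genes had none. Lck had none at 0.1% either, where 5.44% of all genes had none. In Foxp3 cells 6 were above 0 (median 0.51), where 49.3% of all genes were, and Lck again had no overlap, where 5.37% had none, with Lat at 0.67 ± 0.34 and Themis at -0.20 ± 0.34. At 0.1% Lck in Foxp3 cells stood at 475, 486, 486 and 366 against 426, 293 and 356 CPM, so that the groups overlapped, and no member was without overlap, where 4.01% of all genes were. The counts above 0 were then 4 in both CD4 and Foxp3 cells, where 50.1% and 49.7% of all genes were. In NK cells 4 members passed the filter on low counts, with 2 tumors per group, 3 of them above 0 where 50.1% of all genes were, and Skap1 (0.55 ± 0.34), Cd247 (0.55 ± 0.77), Lcp2 (0.24 ± 0.49) and Lck (-0.30 ± 0.52) did not pass the test.

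The difference between the CD8 and CD4 effects was tested directly. The interaction term for Zap70 was 0.89 ± 0.42 at the 1% limit (edgeR, unadjusted p = 0.0480, adjusted p = 0.926) and 0.43 ± 0.40 at 0.1% (adjusted p = 0.985). Those of Lcp2 (0.70 ± 0.32) and Cd247 (0.59 ± 0.29) did not pass either (adjusted p = 0.926 for both). No gene of 3222 was called, and 159 had an unadjusted p under 0.05. An effect of irradiation in CD8 cells was therefore not shown to differ from that in CD4 cells.

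**Figure D5:**
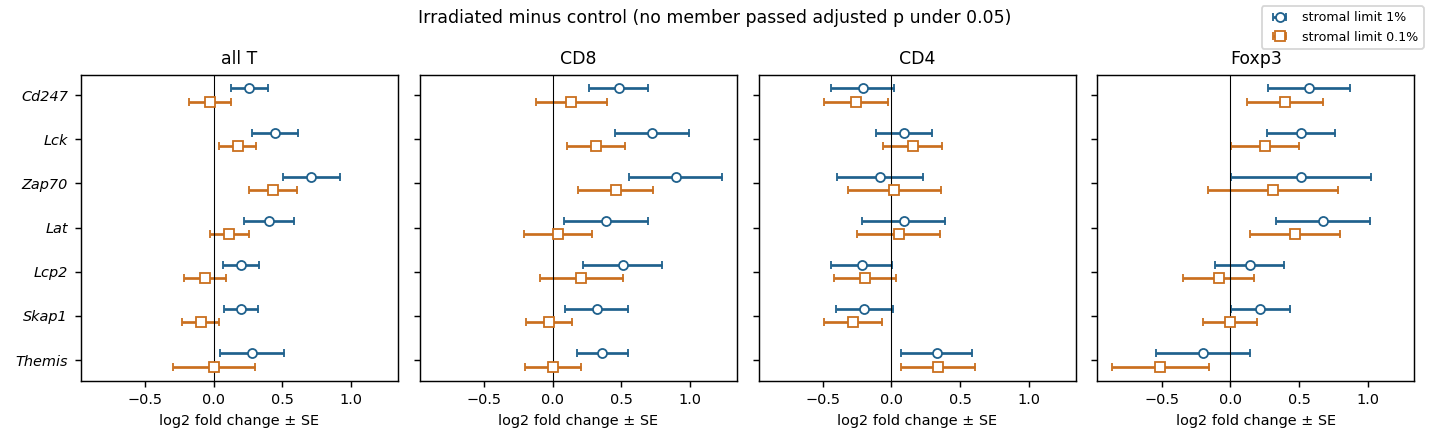
Log2 fold changes, irradiated minus control, with standard errors from edgeR in all T, CD8, CD4 and Foxp3 cells at the 1% limit (blue circles) and the 0.1% limit (orange squares). No member passed the threshold, and Zap70 in CD8 cells went from 0.90 at the 1% limit to 0.46 at 0.1%.

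The other lists of the pathway held no called gene in any gate. In all T cells, 24 of 27 further kinases, adapters and enzymes were above 0, with a median of 0.29, against 0.0040 over all genes. At the 0.1% limit this was 15 of 27, with a median of 0.02. For this list and those that follow, 50.5% of all genes were above 0 at the 1% limit and 49.6% at 0.1%. The 2 genes of this list with the smallest unadjusted p were Sh2d2a, a T cell adapter (0.83 ± 0.21), and Was, the actin regulator of the Wiskott-Aldrich syndrome (0.91 ± 0.27, edgeR adjusted p = 0.487 for both). Of 20 brakes 16 were above 0, and 11 at 0.1%, with Cbl at 0.41 ± 0.14 and Ptpn6 at 0.75 ± 0.27. Of 6 counterparts all were above 0, and 3 at 0.1%, with Tyrobp at 0.90 ± 0.62 and Lat2 at 0.55 ± 0.49. Of 13 early response genes 5 were above 0, where 50.5% of all genes were, and 3 at 0.1%, where 49.6% were. At the 1% limit the transcription factors Egr1 (-1.16 ± 0.25) and Nr4a2 (-0.58 ± 0.25) had edgeR adjusted p = 0.487 and 0.506. The dissociation stress genes had medians of 4050 CPM in the irradiated (3480 to 4917) and 4788 CPM in the control tumors (3438 to 4955). Their part in these values was not tested.

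T-gated cells were 3.39%, 4.61%, 5.44% and 6.49% of the retained cells of irradiated tumors 1 to 4 and 2.52%, 3.01% and 2.56% of those of control tumors 1 to 3. Every irradiated tumor was above every control tumor. The two-sided exact permutation test gave p = 0.0571 for the difference of means (4.98% ± 1.31 against 2.70% ± 0.271, SD, n = 4 and 3) and adjusted p = 0.179 over 5 gates, and the smallest p this design allows is 0.0286. The difference was in the share and not in the number of T-gated cells, which was 108 to 223 in the irradiated and 129 to 224 in the control tumors, and the levels above are shares of T-cell UMIs. Where a sum over a gate differs, fewer cells of a kind and less RNA per cell cannot be told apart.

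Across the 25 sums of a tumor and gate, the gene most like each member in log2 CPM, among 4085 genes with a mean of at least 50 CPM, was in turn Klhl6 for Zap70 (Pearson r = 0.71), Rnf145 for Lck (0.83), Cd3d for Lat (0.94), Fam169b for Cd247 (0.89), Rasgrp1 for Lcp2 (0.88), Ptpn22 for Skap1 (0.84) and Grap2 for Themis (0.95). Cd3d is a gate gene, and the sums share tumors, libraries and gates, so these values are a description. Among the members themselves the highest r was 0.86 (Lat and Themis) and the lowest 0.35 (Zap70 and Themis).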

How the data were processed

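Tumors were dissociated with papain and 10000 cells per tumor were loaded on the 10x Genomics 3' v3.1 assay. The authors deposited a matrix of UMI counts for each of the 7 libraries, and the matrix headers name Cell Ranger 8.0.0. The study's methods state alignment to mm10, and the submitters' processing notes name Seurat 4.4. Whether intronic reads were counted is not given in the sources used here. Groups came from the sample labels. The 7 genes, lists, gates and tests were chosen with earlier results of these data known.

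A cell was retained (34297 of 39537) if UMIs, genes and the mitochondrial and ribosomal shares all lay within 3 median absolute deviations of the library's own medians. Library totals were 53496570 to 153044123 UMIs. The T gate needed 2 UMIs of receptor chains with 1 of Cd3d, Cd3e or Cd3g. The NK gate needed 2 UMIs of its list, 1 of Ptprc and 0 of those 3 chains. Both allowed 2 macrophage UMIs and 1% tumor and stromal UMIs, which removed 91 of 1314 cells that met the T rule. Doublets were kept. Scrublet (scanpy 1.11.5) marked 0.0274% and 0.106% of irradiated libraries 1 and 3, too few to have worked there. CPM are UMIs per 1000000 of the gate's own UMIs, and 3' UMIs do not scale with transcript length. Levels are compared mainly within a gene, between gates or groups. In endothelial- and T-gated cells, UMIs of members are also set against those of Skap1.

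Counts were summed per tumor and gate (at least 10 cells) and tested with edgeR 4.0.16 (R 4.3.3, filterByExpr, TMM, robust quasi-likelihood), with Benjamini-Hochberg adjustment over all genes of a fit and a threshold of 0.05. Gates were compared in 1 fit with tumor as a block. A self-test on simulated counts was run for the irradiated-against-control fit of each gate and for CD8 against CD4 with tumor as a block. It was not run for the joint fit of all gates or for the interaction term. DESeq2 1.42.0 was an alternative. Alternatives were other size factors, no filter on genes or cells, other gates and doublet filters, a term for the technical set, the replicate number as a block and each tumor left out. Genes named from the other lists are the 3 most changed past the threshold in each direction, or the 2 with the smallest p where none passed. Some genes that this rule picks are not reported here. Cells were thinned to 1000 UMIs by expected hypergeometric detection, and the genes most like a member were ranked by Pearson r.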

Additional observations from a re-analysis of the deposited data

How the results depend on the processing

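Calls between irradiated and control tumors were 0 in every gate as reported. With every gene of at least 1 UMI tested, edgeR called 193 genes in all T, 42 in CD8, 15 in CD4, 64 in Foxp3 and 7 in NK cells, with Zap70 in all T cells at 0.74 (adjusted p = 0.0400), and NK against CD8 gave 951 and Foxp3 against CD4 555 calls (420 and 214 as reported, without gate genes). DESeq2 gave 1 call in all T and 1 in Foxp3 cells, no cell filter 1 in Foxp3, and leaving out the highest Scrublet scores 6 in Foxp3. The technical set as a term gave 2 NK calls and turned Themis in Foxp3 cells to 0.053. At the 0.1% limit control tumor 3 was the only control with at least 10 NK cells, so NK calls are not given there. That limit turned Cd247 (-0.027), Lcp2 (-0.061) and Skap1 (-0.093) in all T cells and Skap1 (-0.024) in CD8 cells. The same limit turned Zap70 (0.021) in CD4 and Lcp2 (-0.085) and Skap1 (-0.0030) in Foxp3 cells. It also turned Lck (-0.039), Lat (-0.017) and Skap1 (-0.27) between CD4 and CD8. Per 1000 CD3-chain UMIs, Cd247 (-0.098), Lcp2 (-0.17), Skap1 (-0.17) and Themis (-0.079) turned in all T cells. Stricter gates gave 74 calls for NK against CD8 and 106 for Foxp3 against CD4, and turned Lcp2 to 0.079 between NK and CD8, and Lcp2 to -0.043 and Skap1 to -0.012 in irradiated Foxp3 cells. The NK gate as first written gave 4198 calls against CD8 and Lck at 0.30 in irradiated NK cells. The causes of these changes were not tested. Most cells of that NK gate had no Xist UMI, as given above.

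Leaving out 1 tumor at a time gave 0 to 600 calls in all T, 0 to 151 in CD8, 0 to 1 in CD4, 0 to 36 in Foxp3 and 11 to 23 in NK cells, the lone NK tumor of a group being taken to vary like the others. Zap70 ranged from 0.56 to 0.86, Lck from 0.35 to 0.54, Cd247 from 0.19 to 0.30, Lcp2 from 0.15 to 0.25, Skap1 from 0.11 to 0.24 and Themis from 0.11 to 0.47 in all T cells. In CD4 cells Zap70 ranged from -0.21 to 0.10, Lat from -0.076 to 0.35 and Cd247 from -0.33 to 0.011. Themis ranged from -0.45 to 0.065 in Foxp3, and Lck from -0.85 to 0.15 and Lcp2 from -0.48 to 0.51 in NK cells. Between gates, calls ranged from 253 to 508 (NK against CD8) and from 106 to 231 (Foxp3 against CD4), and Skap1 between CD4 and CD8 from -0.045 to 0.20. At the 0.1% limit, calls in all T cells ranged from 0 to 3, Zap70 from 0.34 to 0.61, Lck from 0.13 to 0.24, Cd247 from -0.13 to 0.065, Lcp2 from -0.15 to 0.079, Skap1 from -0.17 to -0.0060 and Themis from -0.20 to 0.20.

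Replicate numbers did not pair the tumors: deviations of same-numbered tumors correlated at -0.066, -0.066 and -0.037 over 8817 genes. With the number as a replicate block there was 1 call in CD4 and 2 in Foxp3 cells, Lat in CD4 cells was -0.0022 and Zap70 in all T cells 0.64 (adjusted p = 0.849). Stricter gates and the block gave no value for irradiated against control NK cells. Depth limits the NK comparisons, since the gate held 63 cells, with 36 UMIs of Zap70 and 7 of Lat.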

Other observations

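Lcp2, Cd247 and Lck had more UMIs in endothelial-gated cells than Skap1 did. In 535 endothelial-gated cells, Lcp2 had 227 UMIs in 71 cells (34.2 CPM), Cd247 had 73 UMIs in 58 cells (10.99 CPM) and Lck 35 UMIs in 29 cells (5.27 CPM), while Skap1, at 1547 CPM in pooled T-gated cells, had 9 UMIs and Themis had 0. There were 25.2 Lcp2 UMIs, 8.11 Cd247 UMIs and 3.89 Lck UMIs per Skap1 UMI in endothelial-gated cells, against 0.156, 0.254 and 0.249 in T-gated cells. Macrophage-gated cells held 77.7% of all Lcp2 UMIs and 0.625% of those of Cd247, and the part of RNA from other cells in these values was not tested. Cd247 was above 0 in the endothelial-gated cells of 6 of the 7 tumors. The gate required 0 Ptprc UMIs.

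Klra4, the gene of an NK receptor, had 30808 UMIs in tumor-gated cells and was found in 45.3% of them, at 74.3 CPM, while Nkg7 was found in 0.245%. In NK-gated cells Klra4 was found in 30.2%, at 228 CPM. These shares were taken without thinning, at medians of 21765 UMIs in tumor-gated and 6703 UMIs in NK-gated cells.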
